A study of Mus musculus with 26 samples.

Results

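Cxcr2, Cxcr3, Cxcr4 and Cx3cr1, which encode receptors for CXC chemokines and for the CX3C chemokine, and Cxcl12, which encodes the ligand of CXCR4, were followed through 3 myeloid cell types of WT and ACKR2-/- mice. The genes were chosen by name and are 5 of the 50104 genes that the monocyte, SPM and lung tables share. All 5 were found in each table. After the filter on low counts, 4 remained in bone marrow monocytes, where Cxcl12 was too low, 4 in SPMs, where Cxcr2 was too low, and 5 in lung macrophages.

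Chemokine receptors are seven-pass membrane proteins that signal through Gi proteins and steer leukocytes along gradients of their ligands. CXCR2 binds the neutrophil-attracting CXC chemokines and draws neutrophils out of the bone marrow. CXCR3 binds CXCL9, CXCL10 and CXCL11 and is best known on activated T cells, NK cells and plasmacytoid dendritic cells. CXCR4 holds haematopoietic cells, monocytes and neutrophils in the bone marrow by binding CXCL12, which stromal and endothelial cells make. CX3CR1, the receptor for the membrane-bound chemokine CX3CL1, marks monocytes, most of all the nonclassical ones that patrol vessels, and many tissue macrophages. ACKR2, the receptor missing in the knockout, is a scavenger of inflammatory CC chemokines.

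RNA of cells sorted by FACS was sequenced from 26 samples. Monocytes came from the bone marrow, SPMs (small peritoneal macrophages) from the peritoneal lavage and MHCII negative interstitial macrophages from digested lungs. There were 4 WT and 4 ACKR2-/- samples of monocytes and of SPMs, each with cells of 5 pooled mice, and 5 WT and 5 ACKR2-/- samples of lung macrophages, for which no number of mice was found. WT mice were C57BL/6J from a commercial breeder and ACKR2-/- mice came from an in-house colony kept homozygous, so the genotypes were matched for age and sex but were not littermates. All were female, naïve and in general 8 to 10 weeks old. Genotype thus cannot be told apart from colony, and p-values measure only the spread between these samples, which for the lung may be technical.

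The libraries held 12781144 to 35400034 reads on genes. Values are CPM, counts scaled to the size of each library with TMM factors computed within a table. Ackr2, the targeted gene, had 5, 8, 7 and 9 reads in the WT SPM samples and 0 in each ACKR2-/- SPM sample, as the labels have it. In monocytes it had 2 reads in all WT and 0 in all ACKR2-/- samples, too few to check those labels. In the lung it reached 22.1, 17.7, 7.75 and 14.6 CPM in WT replicates 1 to 4 and 0.282 to 1.64 CPM in the ACKR2-/- samples, but the library labelled WT lung replicate 5 had no read on it. Fibroblast markers, among them Col1a1, ordered the WT lung libraries as Ackr2 did, with sums of 884.8, 732.9, 398.2, 624.4 and 82.4 CPM in replicates 1 to 5. The paper states that ACKR2 was earlier found mainly in stromal cells. Their part in the Ackr2 values was not tested. WT lung replicate 3 stood apart in another way. Its 6 interstitial macrophage markers (C1qa, C1qb, Mrc1, Lyve1, Folr2 and Cd163) summed to 8172 CPM, against 189.5 to 1139 CPM in the other 9 lung libraries and 6526 to 11880 CPM in SPMs. Its 6 nonclassical monocyte markers, among them Nr4a1 and Treml4, summed to 1672 CPM, against 4605 to 8235 CPM in the other 9 and 127.4 to 154.5 CPM in bone marrow monocytes. In 9 of the 10 lung libraries the markers of the labelled cell type were thus lower than in SPMs, and those of nonclassical monocytes were high. Monocytes had Ly6c2 at 3271 to 6461 CPM and SPMs had H2-Ab1 at 24420 to 37810 CPM, but markers of other cells were present too. The 6 monocyte markers summed to 16310 to 17680 CPM in WT and 10090 to 14950 CPM in ACKR2-/- monocytes. The 8 neutrophil markers summed to 38940 to 90520 CPM and 12660 to 57040 CPM there. In SPMs, B cell markers summed to 175.9 to 584.1 CPM and dendritic cell markers to 150.8 to 1225 CPM. The flow cytometry gate described for lung interstitial macrophages takes CD45+ and Ly6G- cells, among other markers. Markers of cells that such a gate is meant to leave out were still counted. In lung libraries of WT and ACKR2-/- mice, epithelial markers summed to up to 15380 and 16770 CPM and endothelial markers to up to 837.3 and 723.9 CPM. Fibroblast markers reached 884.8 and 808.5 CPM and neutrophil markers 78.14 and 460.1 CPM. The source of these reads was not tested.

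**Figure D1:**
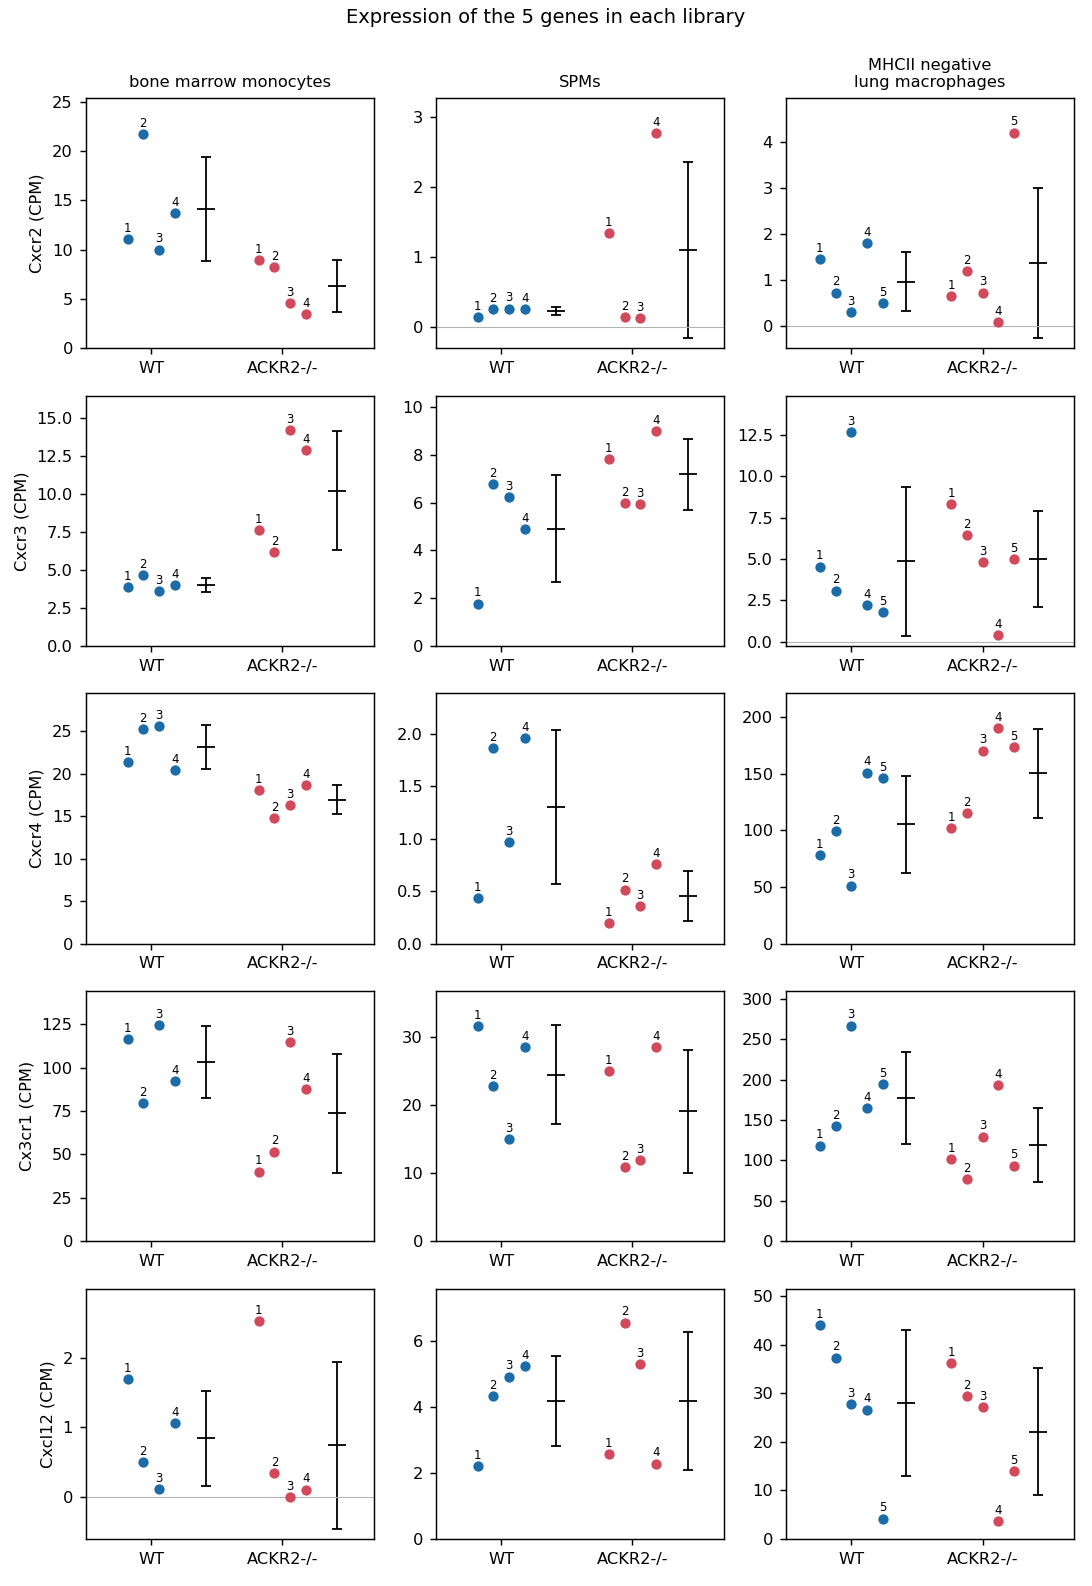
CPM of the 5 genes in every library, with cell types in columns and genotypes along each x axis. Points are libraries with their replicate numbers, bars are mean ± SD (n = 4 for monocytes and SPMs, n = 5 for lung), and each panel has its own linear y axis, where a bar can reach below 0. In monocytes, ACKR2-/- points lie wholly above WT points for Cxcr3 and wholly below them for Cxcr2 and Cxcr4.

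The order of the 5 genes differed between the cell types. Per kilobase of gene model, which allows genes to be compared, the order in WT lung macrophages was Cxcr4 at 58.1 ± 23.8 CPM per kb (SD, n = 5), Cx3cr1 at 39.4 ± 12.7, Cxcl12 at 3.42 ± 1.85, Cxcr3 at 2.80 ± 2.60 and Cxcr2 at 0.316 ± 0.211. WT monocytes instead had Cx3cr1 first, at 22.9 ± 4.64 CPM per kb (SD, n = 4), followed by Cxcr4 at 12.8 ± 1.45, Cxcr2 at 4.64 ± 1.74, Cxcr3 at 2.32 ± 0.261 and Cxcl12 at 0.103 ± 0.0843. In WT SPMs Cx3cr1 led too, at 5.42 ± 1.62 CPM per kb (SD, n = 4), and Cxcr3 with 2.84 ± 1.29 stood above Cxcr4 with 0.721 ± 0.405. Between cell types these levels depend on the scaling. With factors computed over the 3 tables together, WT SPM means were 8.77 in place of 4.92 CPM for Cxcr3 and 42.7 in place of 24.4 CPM for Cx3cr1, and the order of the 6 groups stayed the same for Cxcr4, Cx3cr1 and Cxcl12 but not for Cxcr2 and Cxcr3.

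The WT cell types were compared in 1 edgeR fit of all 26 samples over 17792 genes, in which cell type and the separate counting of each table cannot be told apart. SPMs differed from monocytes in 5 of the 5 genes when a call asked for an adjusted p below 0.05 and a log2 difference beyond 0.5 in either direction, beside 41.9% of all genes. Lung macrophages differed from monocytes in 3 of 5, beside 63.8% of all genes, and from SPMs in 2 of 5, beside 62.3%. DESeq2 called 4, 4 and 3 of 5 in these comparisons. Of all 17792 genes it called 4719 higher and 3065 lower, 7361 higher and 4108 lower, and 6581 higher and 4524 lower. It passed Cx3cr1 for lung macrophages minus monocytes (0.84, DESeq2 adjusted p = 0.0215, against 0.76 and 0.0513 with edgeR) and Cxcr3 for lung macrophages minus SPMs (-1.32, DESeq2 adjusted p = 0.0324, against -1.24 and 0.053 with edgeR), and both also passed in edgeR with RLE factors. These shares of all genes are so large that the counts say little about the 5 genes, and their sizes say more. The scaling of SPM libraries mattered as well. Without TMM factors, an alternative chosen after seeing the data, the median of all genes moved by -1.12 on the log2 scale for SPMs minus monocytes and by 1.21 for lung macrophages minus SPMs, while it moved by 0.0914 for lung macrophages minus monocytes.

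Cxcr4 was 34.1-fold higher in WT lung macrophages than in WT SPMs (log2 difference 5.09, standard error 0.41, edgeR adjusted p = 1.44e-10), 4.49-fold higher than in WT monocytes (2.17, standard error 0.35, adjusted p = 6.74e-06) and lower in SPMs than in monocytes (-2.92, standard error 0.39, adjusted p = 1.17e-06). Cxcr2 was lower in SPMs (-4.75, standard error 0.94, edgeR adjusted p = 0.000181) and in lung macrophages (-3.88, standard error 0.77, adjusted p = 0.000112) than in monocytes. With factors computed within a table it exceeded 5 CPM only in monocyte libraries. With factors over the 3 tables together, ACKR2-/- SPM replicate 4 was at 5.13 CPM. Cxcl12 was higher in SPMs (3.50, standard error 0.88, edgeR adjusted p = 0.00203) and in lung macrophages (5.05, standard error 0.90, adjusted p = 2.95e-05) than in monocytes, where it had few reads. Cx3cr1 was 3.19-fold higher in lung macrophages than in SPMs (1.67, standard error 0.35, edgeR adjusted p = 0.0002). These differences kept their direction and stayed past the threshold in every alternative run, those without TMM factors and without each library included. The lower Cx3cr1 of SPMs against monocytes (-0.91, standard error 0.36, edgeR adjusted p = 0.0409) did not hold when RLE factors replaced those of TMM (adjusted p = 0.0872), and over all alternatives its adjusted p ran from 3.47e-05 to 0.129. Cxcr3 had no stable order. Its higher level in SPMs than in monocytes (1.47, standard error 0.60, edgeR adjusted p = 0.0487) shrank to 0.23 without TMM factors (adjusted p = 0.789), and over all alternatives its adjusted p ran from 0.0142 to 0.789.

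**Figure D2:**
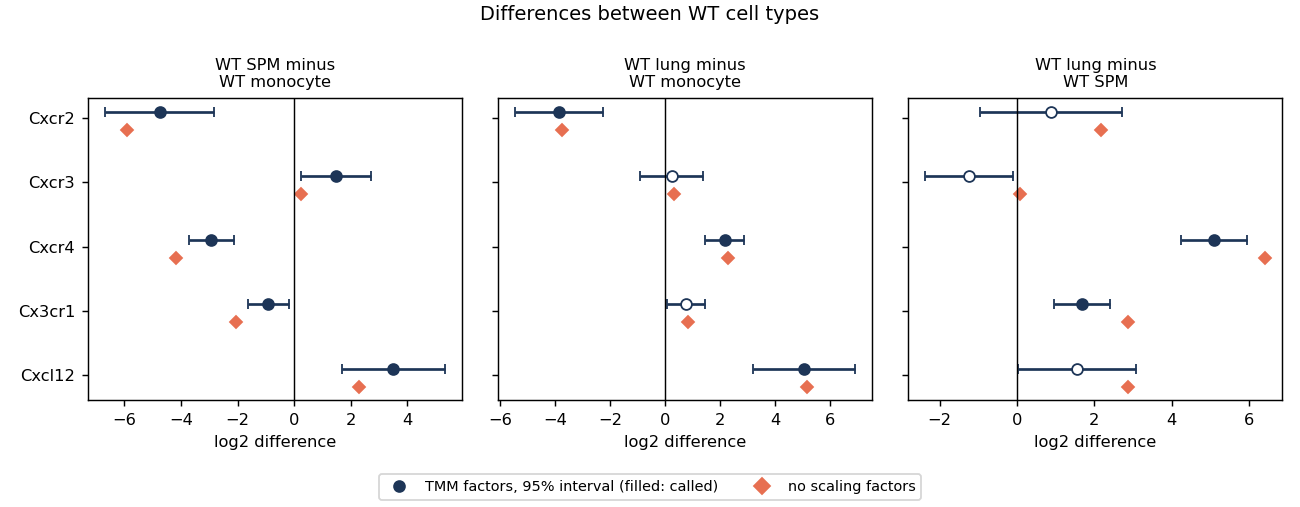
Log2 differences between WT cell types for the 5 genes, in 3 panels. Circles with 95% confidence intervals come from the fit with TMM factors and are filled where a gene passed the threshold, and diamonds come from the fit without scaling factors. Cxcr4 runs from -2.92 for SPMs minus monocytes to 5.09 for lung macrophages minus SPMs, and Cxcr3 crosses 0 between the scalings in the last panel.

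Whether ACKR2 deficiency goes with a change in these genes was asked in each cell type on its own. Of the 13 tests over the 3 cell types, 1 passed, a higher Cxcr3 in ACKR2-/- monocytes.

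**Figure D3:**
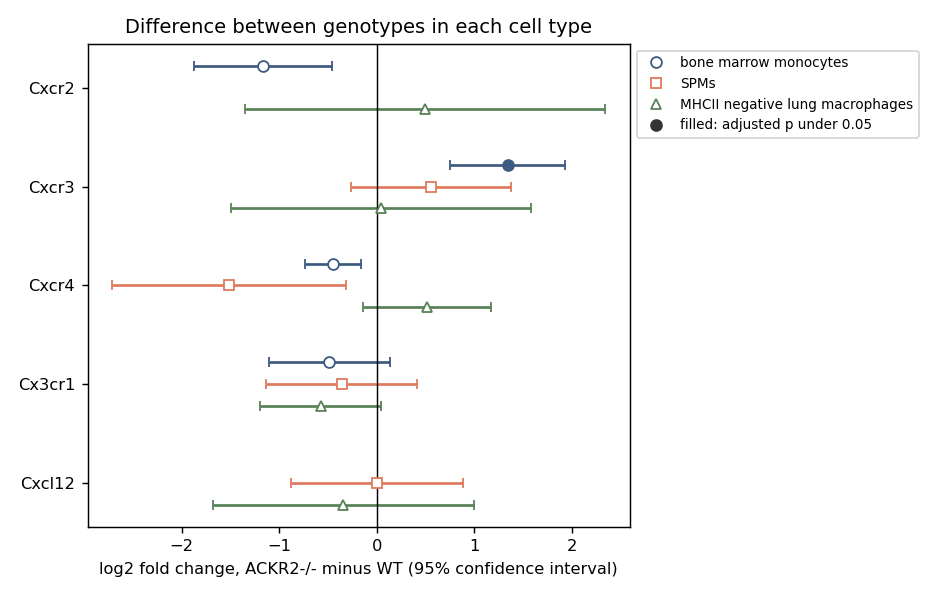
Log2 fold change of ACKR2-/- over WT for each gene, with its 95% confidence interval, in monocytes (circles), SPMs (squares) and lung macrophages (triangles). Filled symbols have an adjusted p under 0.05, which holds for Cxcr3 in monocytes at 1.34, and genes below the filter in a cell type are not drawn.

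Cxcr3 is the protein-coding gene ENSMUSG00000050232 at chrX:101731535-101734269 (GRCm38, minus strand). In WT monocytes it was at 3.84, 4.66, 3.62 and 3.97 CPM in replicates 1 to 4, and in ACKR2-/- monocytes at 7.58, 6.15, 14.1 and 12.9 CPM. Every ACKR2-/- library lay above every WT library, with replicates 3 and 4 highest. The mean rose from 4.02 ± 0.451 to 10.2 ± 3.91 CPM (SD, n = 4 each), from 270 reads in all WT and 760 in all ACKR2-/- libraries, a log2 fold change of 1.34 (95% confidence interval 0.75 to 1.93, edgeR adjusted p = 0.0364). In this comparison 1.27% of the 13246 tested genes were called and 10.2% did not overlap between genotypes, against 1 and 3 of the 4 tested genes here. Among all tested genes 0.913% were called higher and 0.355% lower. The call was lost without any of the 4 WT libraries or without ACKR2-/- replicate 4, with adjusted p-values of up to 0.13.

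Sums of T cell, plasmacytoid dendritic cell and NK cell markers were also higher in these ACKR2-/- libraries. All 8 T cell markers (Cd3d, Cd3e, Cd3g, Trac, Trbc2, Cd2, Lck and Cd5) were called higher in ACKR2-/- monocytes, with sums of 3.56 to 4.87 CPM in WT and 64.5 to 115.3 CPM in ACKR2-/- libraries, and Cd3e was at 0 in at least 1 WT library. The 5 plasmacytoid dendritic cell markers were all higher, with 1 called, Siglech (3.56 to 5.26 against 17.1 to 78.6 CPM), and their sums were 171 to 214.7 CPM in WT and 220.1 to 322 CPM in ACKR2-/- libraries. The 6 NK cell markers were too low to be tested. They summed to 0.0622 to 0.224 CPM in WT and 1.31 to 2.66 CPM in ACKR2-/- libraries, with Ncr1 at 0 throughout. Among the ACKR2-/- libraries, replicates 3 and 4 had the most Cxcr3 and also the highest T cell sums, and replicate 2 was lowest in both. Replicates 1 and 3 had similar T cell sums, 91.06 and 93.92 CPM, but 7.58 and 14.15 CPM of Cxcr3. The plasmacytoid dendritic cell sums did not follow Cxcr3 there, at 322, 220.1, 226 and 253.3 CPM in replicates 1 to 4. The part of these cells in the Cxcr3 result was not tested.

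In SPMs, Cxcr3 was at 1.77, 6.76, 6.25 and 4.88 CPM in WT and at 7.82, 5.98, 5.95 and 8.995 CPM in ACKR2-/- samples. The groups overlapped, with WT replicate 1 lowest, and 0 of the 4 genes tested in SPMs separated the genotypes, beside 3.4% of all genes there (log2 fold change 0.55, 95% confidence interval -0.26 to 1.37, edgeR adjusted p = 0.788). T cell markers there summed to 246.1, 446, 488 and 364.3 CPM in WT, lowest in replicate 1 too. In ACKR2-/- SPMs they summed to 265.7, 374.5, 401.9 and 216.1 CPM, the reverse order of Cxcr3. NK cell sums, at 1.725, 11.46, 9.147 and 8.942 CPM in WT and 31.27, 11.04, 10.85 and 66.35 CPM in ACKR2-/- SPMs, had the order of Cxcr3 within each genotype. The part of these cells in SPMs was not tested. Lung macrophages had 4.53, 3.08, 12.7, 2.19 and 1.76 CPM in WT and 8.31, 6.44, 4.81, 0.402 and 4.998 CPM in ACKR2-/- samples, with a log2 fold change of 0.05 (95% confidence interval -1.49 to 1.58, edgeR adjusted p = 0.9999). WT replicate 3 was far above the other WT libraries, and without it the fold change was 0.80 on the log2 scale. The same library held 2251 CPM of B cell markers and 590.1 CPM of dendritic cell markers, against at most 741.6 and 48.4 CPM in the other 9. The 8 T cell markers summed to 534.9, 473.8, 288, 85.3 and 464.2 CPM in ACKR2-/- replicates 1 to 5, in the same order as Cxcr3, but to 346.4, 182.9, 287.4, 196.5 and 102.5 CPM in WT, in another order. The 6 NK cell markers, all with higher fitted levels in ACKR2-/- samples and 0 called, summed to 117.6 to 335.2 CPM in WT and 294 to 1816 CPM in ACKR2-/- samples. The part of these cells in the lung values of Cxcr3 was not tested. The effect of the genotype on Cxcr3 in monocytes was not shown to differ from that in SPMs (difference -0.72, standard error 0.82, edgeR adjusted p = 0.894) or in lung macrophages (-1.25, standard error 0.78, adjusted p = 0.891).

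Cxcr2 is the protein-coding gene ENSMUSG00000026180 at chr1:74153989-74161246 (GRCm38, plus strand). WT monocytes had 11.1, 21.8, 10.0 and 13.7 CPM and ACKR2-/- monocytes 8.98, 8.20, 4.58 and 3.51 CPM. Every ACKR2-/- library was below every WT library, the closest pair being ACKR2-/- replicate 1 and WT replicate 3 (two-sided exact permutation p = 0.0286, which no comparison of 4 with 4 can go below). The log2 fold change of -1.16 (95% confidence interval -1.87 to -0.46) reached an adjusted p of 0.108 by edgeR and 0.019 by DESeq2, and over all alternatives the adjusted p ran from 0.019 to 0.312. Neutrophil markers moved with it. All 8 (S100a8, S100a9, Ly6g, Camp, Ngp, Ltf, Retnlg and Mmp8) had lower fitted levels in ACKR2-/- monocytes, 0 of them called by edgeR, and none was at 0 in these libraries. Their sums were 44710, 90520, 38940 and 66240 CPM in WT and 53740, 57040, 12660 and 20520 CPM in ACKR2-/- replicates 1 to 4. WT replicate 2 was highest and ACKR2-/- replicates 3 and 4 were lowest both in this sum and in Cxcr2, while ACKR2-/- replicates 1 and 2 overlapped with WT in the sum but not in Cxcr2. Ly6g, which defines mature neutrophils, was at 7.46 to 18.2 CPM in WT and 2.68 to 6.94 CPM in ACKR2-/- libraries (log2 fold change -1.42, edgeR adjusted p = 0.072). The gate described for the bone marrow monocytes takes Ly6G- and Ly6C+ cells, among other markers. The part of neutrophils in the Cxcr2 values was not tested.

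Outside the marrow Cxcr2 was low in most libraries. WT SPMs had 18 reads in all, 0.144 to 0.264 CPM. ACKR2-/- SPMs had 1.34, 0.147, 0.129 and 2.77 CPM, so that replicates 1 and 4 were above all others and replicates 2 and 3 were within or just below the WT range. The gene did not pass the filter, and the means did not differ beyond the spread (exact permutation test, two-sided, p = 0.4). Neutrophil markers summed to 66.4 and 156.2 CPM in ACKR2-/- replicates 1 and 4, to 8.03 and 22.9 CPM in replicates 2 and 3, and to 5.37 to 85.0 CPM in WT, with Ly6g at 0 to 0.566 CPM. Their part in these values was not tested. In lung macrophages Cxcr2 was at 0.310 to 1.80 CPM in WT and 0.0805 to 1.19 CPM in 4 ACKR2-/- libraries, with 4.2 CPM in ACKR2-/- replicate 5. That library also had the largest neutrophil marker sum, 460.1 CPM against 2.12 to 108.2 CPM in the other 9. The log2 fold change of 0.50 (edgeR adjusted p = 0.9999) turned to -0.52 without it.

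**Figure D4:**
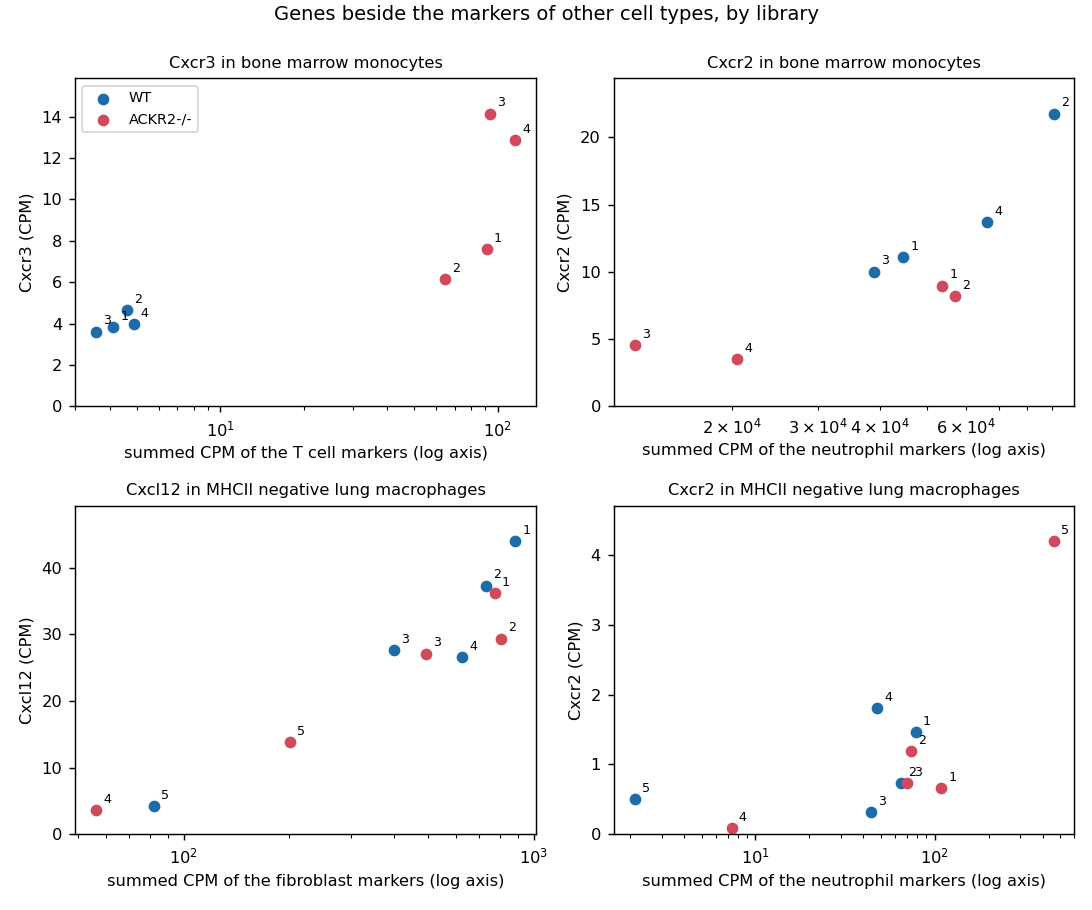
CPM of Cxcr3, Cxcr2 and Cxcl12 (linear y axes from 0) against the summed CPM of a marker list (log x axes), with 1 numbered point per library. In monocytes the ACKR2-/- points have T cell sums over 64 CPM while WT points stay under 5 CPM, and in lung macrophages the libraries with the fewest fibroblast marker reads, WT replicate 5 and ACKR2-/- replicate 4, also have the least Cxcl12.

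Cxcr4 is the protein-coding gene ENSMUSG00000045382 at chr1:128588199-128592293 (GRCm38, minus strand). Monocytes had 21.4, 25.2, 25.5 and 20.4 CPM in WT and 18.1, 14.8, 16.3 and 18.6 CPM in ACKR2-/- samples. The groups did not overlap, and both had a small spread (23.1 ± 2.61 and 16.9 ± 1.75 CPM, SD, n = 4 each). The log2 fold change was -0.45 (95% confidence interval -0.74 to -0.16), adjusted p = 0.127 by edgeR and 0.0703 to 0.33 over all alternatives (exact permutation test, two-sided, p = 0.0286). The order of the libraries was not that of the neutrophil list, since WT replicate 3 had the most Cxcr4 of the WT libraries and the lowest neutrophil sum among them. The 6 monocyte markers, 0 of them called, did separate the genotypes as Cxcr4 did, with sums of 16310 to 17680 CPM in WT and 10090 to 14950 CPM in ACKR2-/- libraries, and their part in the Cxcr4 values was not tested.

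SPMs held so little Cxcr4 that single libraries rested on few reads. Its level was 0.431, 1.86, 0.967 and 1.96 CPM in WT and 0.192, 0.513, 0.361 and 0.754 CPM in ACKR2-/- samples. Of the 4 ACKR2-/- libraries, 2 were below all WT libraries and the others above WT replicate 1 (log2 fold change -1.51, 95% confidence interval -2.71 to -0.31, edgeR adjusted p = 0.788). Lung macrophages had 78.3, 99.2, 51.1, 150.9 and 145.9 CPM in WT and 101.7, 114.9, 170.2, 190.2 and 173.3 CPM in ACKR2-/- samples. The 3 highest libraries were ACKR2-/-, but the groups overlapped (log2 fold change 0.51, 95% confidence interval -0.14 to 1.17, edgeR adjusted p = 0.9999, exact permutation test, two-sided, p = 0.135). Among the ACKR2-/- lung libraries the order in Cxcr4 was the reverse of the order in the 6 epithelial markers, among them Sftpc, which summed to 16770, 11360, 6699, 232.8 and 5709 CPM in replicates 1 to 5. The WT libraries, with sums of 15380, 9695, 8400, 5727 and 373.2 CPM, did not follow that order. Their part in the Cxcr4 values was not tested.

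Cxcr4 thus had opposite signs in SPMs and lung macrophages. The difference between these genotype effects, tested as an interaction, was 1.99 on the log2 scale (standard error 0.53, 95% confidence interval 0.91 to 3.08), which edgeR gave an unadjusted p of 0.000834 and an adjusted p of 0.454. DESeq2 put it at 2.10 with an adjusted p of 0.0358. Over all alternatives the adjusted p ran from 0.0358 to 0.963. By edgeR 0 of the 5 genes passed in any of the 3 interactions, which passed 0.253%, 0.152% and 0.0393% of all genes, and 1 of 5 had an unadjusted p under 0.05 in each of them. DESeq2 passed 0, 0 and 1 of 5, beside 138, 109 and 23 of all 17792 genes.

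Cx3cr1 is the protein-coding gene ENSMUSG00000052336 at chr9:119901616-120069879 (GRCm38, minus strand), 1.83 Mb from Ackr2. Its long gene model spans 9 other genes, but only 78 of its 4505 exonic bases (1.73%) lie in exons of other genes, where reads could be shared. WT monocytes had 116.5, 79.5, 124.5 and 92.1 CPM and ACKR2-/- monocytes 40.1, 51.6, 114.8 and 87.8 CPM. ACKR2-/- replicates 1 and 2 were below all other libraries, and replicates 3 and 4 were within the WT range (log2 fold change -0.49, 95% confidence interval -1.11 to 0.13, edgeR adjusted p = 0.399). The sum of the 5 general macrophage markers (Adgre1, Mertk, Itgam, Fcgr1 and Cd68) moved with Cx3cr1. It was 879.1, 714.5, 973.3 and 830.9 CPM in WT and 402.3, 475, 1294 and 883.6 CPM in ACKR2-/- replicates 1 to 4. Within each genotype, the order of the libraries was the same in this sum and in Cx3cr1. Cd68 was the largest part of the sum, at 522.5 to 712.6 CPM in WT and 284.9 to 1038 CPM in ACKR2-/- libraries. Itgam varied little, at 60.4 to 68.9 and 53.8 to 63.1 CPM, and Mertk was too low to be tested. The sum of the monocyte markers was lowest in ACKR2-/- replicate 1, which also had the least Cx3cr1. The 6 nonclassical monocyte markers ordered the libraries otherwise, although replicate 3 was highest in each genotype. Their sums were 142.8, 142.8, 154.5 and 141.9 CPM in WT and 137.4, 150.2, 153.5 and 127.4 CPM in ACKR2-/- replicates 1 to 4. What these markers have to do with the Cx3cr1 values was not tested.

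In SPMs, Cx3cr1 was at 31.5, 22.7, 15.0 and 28.5 CPM in WT and 24.9, 10.9, 11.9 and 28.5 CPM in ACKR2-/- samples, with wide overlap (log2 fold change -0.36, 95% confidence interval -1.14 to 0.42, edgeR adjusted p = 0.817). The sum of the monocyte markers ordered the libraries in the same way within each genotype, at 2565, 1146, 914.8 and 1182 CPM in WT and 1354, 800.5, 911.8 and 1532 CPM in ACKR2-/- replicates 1 to 4. The general macrophage markers did not, at 992.9, 1315, 1557 and 1427 CPM in WT and 1500, 1368, 1167 and 1373 CPM in ACKR2-/- replicates 1 to 4. Their part in the Cx3cr1 values was not tested. Lung macrophages had 118.3, 142.4, 266.9, 165.2 and 194 CPM in WT and 101.9, 76.4, 129.6, 193.3 and 93.5 CPM in ACKR2-/- samples. Of the ACKR2-/- libraries 3 were below every WT library, and replicate 4 was among the highest (log2 fold change -0.58, 95% confidence interval -1.20 to 0.04, edgeR adjusted p = 0.9999, exact permutation test, two-sided, p = 0.111). Without WT replicate 3, the highest library and the poorest in nonclassical monocyte markers, the log2 fold change was -0.35. Cx3cr1 had lower mean levels in ACKR2-/- samples of all 3 cell types, but none passed the threshold.

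Cxcl12 is the protein-coding gene ENSMUSG00000061353 at chr6:117168535-117181367 (GRCm38, plus strand). In monocytes 26, 8, 2 and 19 reads were counted in WT and 47, 6, 0 and 2 in ACKR2-/- samples, below the filter. The 0 of ACKR2-/- replicate 3 allows up to 0.156 CPM. The groups overlapped across their whole range (exact permutation test, two-sided, p = 0.857). SPMs had 2.20, 4.34, 4.92 and 5.25 CPM in WT and 2.57, 6.56, 5.31 and 2.29 CPM in ACKR2-/- samples, with the same mean of 4.18 CPM in both (log2 fold change 0.003, 95% confidence interval -0.88 to 0.89, edgeR adjusted p = 0.9997).

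In lung macrophages, Cxcl12 was at 44.0, 37.3, 27.7, 26.6 and 4.18 CPM in WT and 36.2, 29.4, 27.1, 3.66 and 13.9 CPM in ACKR2-/- samples. The spread within a genotype was far wider than the difference between genotypes (log2 fold change -0.34, 95% confidence interval -1.68 to 1.00, edgeR adjusted p = 0.9999). The library labelled WT replicate 5 and ACKR2-/- replicate 4 were lowest, and so they were in the 6 fibroblast markers (Col1a1, Col1a2, Col3a1, Dcn, Pdgfra and Lum), which summed to 884.8, 732.9, 398.2, 624.4 and 82.4 CPM in WT and 773.7, 808.5, 492.3, 56.2 and 201.2 CPM in ACKR2-/- replicates 1 to 5. The same 2 libraries had the smallest sums of the 6 endothelial markers, 111.1 and 112.6 CPM against 275.4 to 837.3 CPM in the other 8. None of the fibroblast markers was called and none was at 0 in these libraries. In SPMs the fibroblast markers summed to at most 3.85 CPM, with Col1a1 and Pdgfra at 0 throughout. The part of stromal cells in the lung values of Cxcl12 was not tested, and fewer cells of a type and less RNA per cell cannot be told apart in sorted bulk samples.

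The 23 other genes of the CXC, CX3C and related systems (receptors, atypical receptors and ligands) were a list chosen with earlier results of these data known. In monocytes 9 could be tested, and edgeR called 1 higher and 0 lower, beside 0.913% and 0.355% of all genes, with a median log2 fold change of -0.34 over the list and 0.00 over all genes. The called gene was Cxcr6, a receptor for CXCL16 known on T cells, which rose from 0.260, 0.871, 0.501 and 0.559 CPM in WT to 6.13, 4.78, 10.2 and 10.5 CPM (log2 fold change 3.83, standard error 0.38, edgeR adjusted p = 0.000313). As for Cxcr3, replicates 3 and 4 were its highest libraries, and T cell markers moved with it. Next by p came Xcr1, the receptor that marks cross-presenting dendritic cells (1.30, edgeR adjusted p = 0.0976), and Cxcl9, a ligand of CXCR3 (-1.91, adjusted p = 0.11). DESeq2 called 2 genes of the list higher and 1 lower, and 312 higher and 182 lower of the 13246 genes tested.

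In SPMs 12 genes of this list were tested and edgeR called 0, beside 0.0462% of all genes. DESeq2 also called 0 of them, beside 33 of 12997 genes. By edgeR, 3 of the 12 had an unadjusted p under 0.05, beside 709 of all 12997 genes. The smallest p-values belonged to ligands. Cxcl10, a ligand of CXCR3, had 29.2 and 29.0 CPM in ACKR2-/- replicates 1 and 4, 1.61 and 2.27 CPM in replicates 2 and 3, and 0.479 to 2.69 CPM in WT (log2 fold change 3.27, edgeR adjusted p = 0.788). Cxcl9 had 56.5 and 61.2 CPM in the same replicates 1 and 4, against 1.05 to 4.03 CPM in the other 6 libraries (3.85, adjusted p = 0.788). Cxcl16, the ligand of CXCR6, was at 75.5 and 81.0 CPM in them and 15.9 to 28.9 CPM in the others (1.05, adjusted p = 0.788). These were also the ACKR2-/- SPM libraries with the most Cxcr2, Cxcr3 and Cx3cr1 and the least Cxcl12. Their 6 NK cell markers summed to 31.3 and 66.3 CPM against 1.72 to 11.5 CPM in the other 6, and Marco, a scavenger receptor of macrophages listed here among 6 alveolar macrophage markers, made up nearly all of the sum of that list, which was 207.3 and 311.8 CPM in them and 6.997 to 32.7 CPM in the others. The other 5 alveolar markers were at most 1.62 CPM each in SPMs. The part of NK cells in these values was not tested.

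In lung macrophages 21 genes of the list were tested and edgeR called 0, beside 0% of all genes. DESeq2 also called 0 of them, beside 20 of 16824 genes. By edgeR, 6 of the 21 had an unadjusted p under 0.05, beside 499 of all 16824 genes. The median log2 fold change was -0.41 over the list and -0.04 over all genes, with 15 of the 21 lower. Cxcl13, which attracts B cells, was at 25.7, 25.2, 471.9, 13.01 and 26.4 CPM in WT and 9.06, 12.3, 9.24, 6.48 and 5.26 CPM in ACKR2-/- samples. The groups did not overlap, as in 0.446% of all genes, also when WT replicate 3 with its high value is set aside (log2 fold change -3.73, edgeR adjusted p = 0.9999). Cxcl2, a ligand of CXCR2, was at 294.5 to 1136 CPM in WT and 88.8 to 348.9 CPM in ACKR2-/- samples (-1.29, adjusted p = 0.9999), and Pf4, the platelet chemokine also made by macrophages, at 58.1 to 640.5 and 36.5 to 99.8 CPM (-1.83, adjusted p = 0.9999). WT replicate 3 was highest in all 3.

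**Figure D5:**
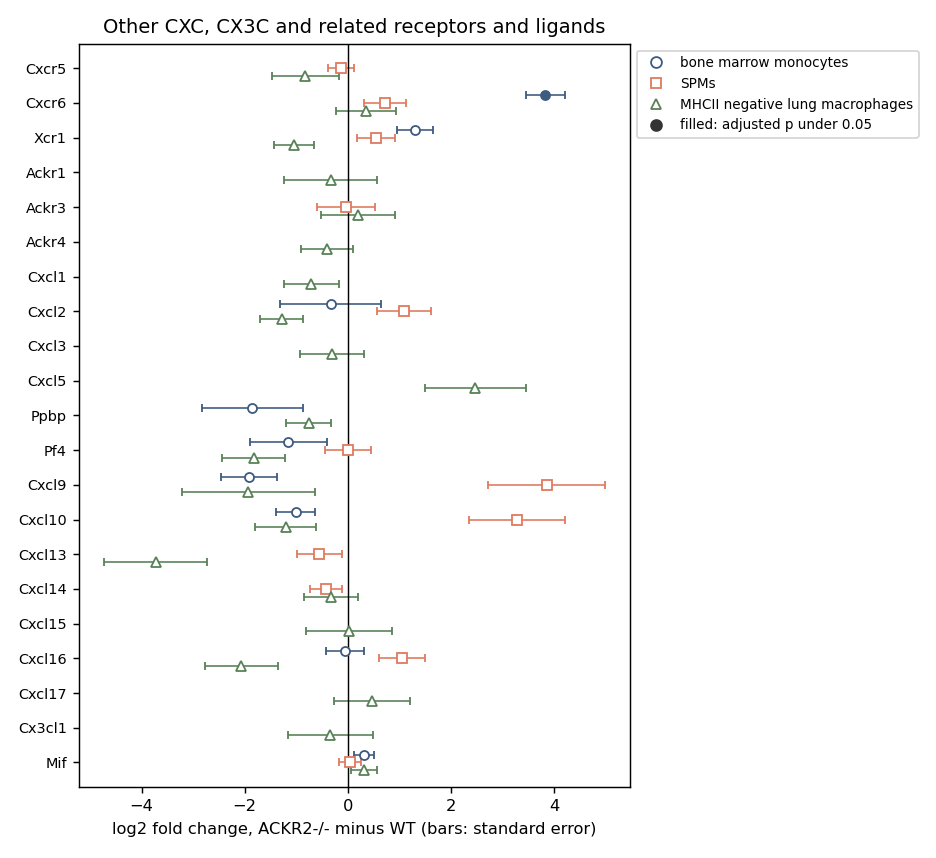
Log2 fold change of ACKR2-/- over WT, with its standard error, for the other receptors and ligands of the list that could be tested in at least 1 cell type, in monocytes (circles), SPMs (squares) and lung macrophages (triangles). Filled symbols have an adjusted p under 0.05, which holds for Cxcr6 in monocytes at 3.83, and Cxcl9 and Cxcl10 have open squares above 3 for SPMs.

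A list of 29 genes that carry the signal of chemokine receptors (G protein subunits, receptor kinases and arrestins, RGS proteins, effectors and proteases) was looked at in the same way. In monocytes all 29 could be tested, and edgeR called 0 higher and 1 lower, beside 0.913% and 0.355% of all genes, with 24 of 29 below 0 and a median of -0.22 on the log2 scale against 0.00 over all genes. The called gene was Ptk2b, a focal adhesion kinase activated downstream of chemokine receptors, at 80.7, 76.8, 81.6 and 58.0 CPM in WT and 36.0, 41.3, 47.8 and 40.4 CPM in ACKR2-/- monocytes (log2 fold change -0.84, standard error 0.14, edgeR adjusted p = 0.011). The groups did not overlap. Gnai3, a subunit of the Gi protein, was at 145.2 to 180.4 CPM in WT and 108.9 to 127 CPM in ACKR2-/- libraries (-0.49, edgeR adjusted p = 0.0657), and Grk3, a kinase that desensitises CXCR4, at 16.0 to 25.6 and 26.4 to 46.4 CPM (0.80, adjusted p = 0.0863). DESeq2 called 1 gene of this list higher and 1 lower, beside 312 higher and 182 lower of the 13246 genes tested. In SPMs 28 were tested and 0 called by either tool, beside 0.0462% of all genes by edgeR and 33 of 12997 genes by DESeq2. Of the 28, 2 had an unadjusted edgeR p under 0.05, beside 709 of all 12997 genes, and 14 lay above 0. The smallest p-values were those of Rgs1, which shortens Gi signals (1.15, edgeR adjusted p = 0.788), Adam10, the protease that sheds CX3CL1 and CXCL16 (-0.83, adjusted p = 0.788), and the kinase subunit Pik3cg (-0.71, adjusted p = 0.788). In lung macrophages 27 were tested and 0 called by either tool, beside 0% of all genes by edgeR and 20 of 16824 genes by DESeq2. Of the 27, 1 had an unadjusted edgeR p under 0.05, beside 499 of all 16824 genes. The first by p were the GTPase Rac2 (0.34), Rgs18 (-0.80) and Gnb2 (0.37), each with an edgeR adjusted p of 0.9999.

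The genes most like Cxcr2, Cxcr3, Cx3cr1 and Cxcl12 in pattern were found by the root mean square difference of gene-centred log2(CPM + 0.5) over the 26 samples among 17791 genes. For Cxcr2 they were Il1f9 (0.48), Ly6g (0.67) and Rab27a (0.69), where the median gene was at 1.64, and with a pseudocount of 0.1 Il1f9 alone stayed among the first. For Cx3cr1 they were Ifi207 (0.35), Sirpa (0.40) and Lcp1 (0.42), with a median of 1.05, and the same 3 came first with pseudocounts of 0.1 and 1. Cxcl12 was nearest to Socs2 (0.58), Efemp2 (0.60) and Wfdc1 (0.60), with a median of 1.99, but with a pseudocount of 0.1 none of the 3 stayed among the first. Cxcr3 was nearest to Macrod2 (0.55), Chchd6 (0.56) and Hdhd3 (0.57), with a median of 1.30, and none of these stayed with a pseudocount of 1. The samples share 3 tables and a common scaling, so these distances mostly follow the cell types.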

How the data were processed

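For each cell type the authors deposited 1 table of counts, the unnormalized number of reads on each gene. Per the labels, reads were aligned with HISAT2 2.0.5 to mm10 and counted with featureCounts 1.5.0-p3, and DESeq2 is named without a version. The lung table, unlike the others, gives Ensembl identifiers without positions and ends with 5 summary lines that hold 56.3% of its counts, left out here, so it may come from another counter or annotation than the other tables. Positions equal those of GENCODE M21 (GRCm38) for 97% of monocyte and 98.3% of SPM identifiers. RNA was poly-A selected and amplified by the SMARTer method. PCR copies were not told apart, so the limit that a count of 0 allows (3 counts) covers counting error only. Strand-specific counting is not stated.

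For each table, genes were filtered with filterByExpr (minimum count 10, minimum total 15), scaled by TMM and compared by edgeR's quasi-likelihood test (edgeR 4.0.16, R 4.3.3), with Benjamini-Hochberg adjustment over all tested genes: 13246 in monocytes, 12997 in SPMs and 16824 in lung macrophages. A gene was called when its adjusted p was below 0.05 and its log2 fold change beyond 0.5 in either direction, thresholds taken from the methods. Cell types and interactions (adjusted p under 0.05) were compared in 1 fit of 26 samples over 17792 genes. The fits were tested on simulated data. Other settings tried were the robust fit, a call on the adjusted p only, a minimum of 1 CPM or no filter at all, RLE factors, DESeq2 1.42.0, the replicate number as a block and each library left out. Levels were also computed with TMM factors over the 3 tables together. Fits without scaling factors and without WT lung replicates 3 and 5 were added after seeing the data. No pair of replicates agreed within sampling noise (chi-square over its degrees of freedom was at least 11.6), 0 libraries were identical, and 0 sample columns were unmapped.

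The 5 genes and all lists were chosen with earlier results of these data known. The text names the 5 genes, list genes that were called or had the 3 smallest p-values in a comparison, the 3 genes nearest in pattern (not reported here for Cxcr4), Ackr2 and defining markers. Of the marker lists, mesothelial markers summed to 0 in monocytes, at most 2.38 CPM in SPMs and 3.38 to 130.7 CPM in lung macrophages. B cell sums were 38.8 to 81.8 CPM in monocytes and 175.9 to 584.1 CPM in SPMs. Large peritoneal macrophage markers summed to 317.8 to 1952 CPM in SPMs beside 24670 to 38080 CPM of the small peritoneal list.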

Additional observations from a re-analysis of the deposited data

Results flagged for a closer look

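The highest and lowest library of each of 30 groups (5 genes, 3 cell types, 2 genotypes) was tested with Dixon's criterion, by which chance alone marks about 1 in 20 groups. It marked 4 libraries. Cxcr2 was at 0.144 CPM in WT SPM replicate 1, the lowest, with the next at 0.258 CPM, a gap that rests on 18 reads in the 4 libraries. Cxcr2 was at 4.2 CPM in ACKR2-/- lung replicate 5, the highest, with the next at 1.19 CPM, in the library with the largest neutrophil marker sum. Cxcr3 was at 12.7 CPM in WT lung replicate 3, with the next at 4.53 CPM, in the library with the most B cell and dendritic cell markers. Cxcl12 was at 2.53 CPM in ACKR2-/- monocyte replicate 1, with the next at 0.341 CPM, from 47 and 6 reads.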

How the results depend on the processing

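Replicate numbers do not pair these samples, because same-numbered WT and ACKR2-/- libraries did not correlate above 0.1 throughout in any cell type, and 2 of 13 correlated best with their own number. With the replicate number as a block, Cxcr2 in monocytes had an adjusted p of 0.049 and Cxcr3 0.0509 (edgeR), 17 genes passed in the lung-minus-monocyte interaction, and Cxcl12 turned to -0.063 in SPMs and 0.25 in that interaction. DESeq2 called 2 of the 5 genes in monocytes (494 genes of the whole table), 33 genes in SPMs and 20 in lung macrophages, against 1 (168), 6 and 0. For the SPM-minus-monocyte, lung-minus-monocyte and lung-minus-SPM interactions it passed 138, 109 and 23 genes (45, 27 and 7 by edgeR), and 1 of the 5 in the last. Without a filter, 2 of the 5 and 346 genes were called in monocytes, 52 genes in SPMs and 42 in the lung-minus-monocyte interaction. Cxcl12 in SPMs, at 0.003, was -0.0078 with DESeq2, -0.0072 with RLE factors and -0.0034 with a filter at 1 CPM. Without scaling factors 4 of 5 genes passed for WT lung minus SPM, beside 11809 higher and 1685 lower of all 17792 genes. Cxcr3 was 0.088 there, and 3 genes passed in the lung-minus-SPM interaction. Without WT lung replicates 3 and 5, 4 of 5 passed for WT lung minus SPM, beside 7082 higher and 4205 lower of all 18287 genes. In these fits Cxcr3 was -0.30 for WT lung minus monocyte and 0.0036 in the lung-minus-SPM interaction. Cx3cr1 was 0.28 in the lung-minus-monocyte and 0.068 in the lung-minus-SPM interaction. The cause of these shifts was not tested. With single libraries left out, 0 to 1 of the 5 genes and 76 (without WT replicate 1) to 413 genes (without ACKR2-/- replicate 3) were called in monocytes. In SPMs 3 to 8 genes were called. For WT SPM minus monocyte 3 to 5 of the 5 genes passed, beside 6719 to 7987 genes of the whole table. In the interactions 29 to 58, 13 to 53 and 4 to 7 genes passed. Over these fits Cxcl12 ran from -0.30 to 0.21 in SPMs, and in the lung Cxcr2 from -0.52 to 0.85 and Cxcr3 from -0.22 to 0.80. Cxcr3 for WT lung minus monocyte ran from -0.46 to 0.44. In the SPM-minus-monocyte interaction Cx3cr1 ran from -0.058 to 0.52 and Cxcl12 from -0.30 to 2.52, in the lung-minus-monocyte interaction from -0.31 to 0.27 and -0.69 to 2.13, and in the lung-minus-SPM interaction Cxcr3 ran from -0.83 to 0.17 and Cx3cr1 from -0.52 to 0.018. Depth limits Cxcr2 in SPMs (18 reads in WT) and Cxcl12 in monocytes (55 reads per genotype).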
